A study of Mus musculus with 8 samples.

Results

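Injury-activated alveolar progenitors (IAAPs) are the cells of the alveolar type II (AT2) lineage with a low Tomato signal, and mature AT2s are those with a high signal. Here IAAPs from mice in which Fgfr2b was targeted for deletion in this lineage (E-IAAPs) were compared with IAAPs from control mice (C-IAAPs). Gene expression was measured on 8 one-colour arrays, and 4 of them enter this comparison: 1 C-IAAP array from day 7 and 3 E-IAAP arrays from days 4, 7 and 14. Control mice were SftpcCreERT2/+; Tomato flox/flox, with Fgfr2b intact, and experimental mice were SftpcCreERT2/+; Fgfr2b flox/flox; Tomato flox/flox. Both genotypes therefore carried the Cre, the Tomato reporter and the tamoxifen treatment, which was given at 1 mg/ml in the drinking water, and the mice were 9 to 12 weeks old and of both sexes. Cre is driven by the Sftpc gene, so deletion is limited to cells that use this gene, and cells were sorted by flow cytometry as Epcam-positive and Tomato low. The other 4 arrays hold the Tomato-high cells: C-AT2s of day 7 and E-AT2s of days 4, 7 and 14.

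A gene was followed when it was bright, with a log2 signal of 10 or more on the C-IAAP array or on all 3 E-IAAP arrays, and when all 3 days of E-IAAPs lay on the same side of C-IAAPs. Of 24357 genes measured, 4352 were bright, 3812 of them in C-IAAPs and 3305 on all 3 E-IAAP arrays. Of the bright genes, 3580 met the rule, 1465 higher and 2115 lower in E-IAAPs, and 772 had days on both sides. The values that decide membership are those of the comparison itself. A gene bright only through C-IAAPs could meet the rule only as lower, and a gene bright only through E-IAAPs only as higher. Just inside the threshold were E330009J07Rik at 10 in C-IAAPs, Polr1d at 10.001 and Dock8 at 10.001, and just outside it Kctd7 at 9.998, Gm38416 at 9.999 and Msi1 at 9.999.

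AT2s make and recycle surfactant, the film of lipid and protein that keeps alveoli open, and they divide and give rise to the flat alveolar type I (AT1) cells that form the gas exchange surface. Fgfr2b is the epithelial splice form of the FGF receptor Fgfr2. It binds Fgf7 and Fgf10 from the mesenchyme and signals through ERK to transcription factors such as Etv4 and Etv5, and in the lung it is known for branching, for AT2 maintenance and for repair. Alveolar macrophages share the airspace with these cells, take up and break down surfactant, and depend on the nuclear receptor Pparg.

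The targeted gene did not separate the genotypes on these arrays. The brightest Fgfr2 spot read 11.72 in C-IAAPs and 11.83, 11.39 and 10.87 in E-IAAPs of days 4, 7 and 14, so that the control array lay inside the experimental range. It read 12.45 in C-AT2s and 12.10, 11.95 and 11.68 in E-AT2s. The fitted difference in IAAPs was -0.36 ± 0.45 (SE) on the log2 scale (adjusted p = 0.621). The deletion removes an exon of the Fgfr2b form, and where the spot lies relative to that exon was not examined, so this spot is no check of the deletion.

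Differences were fitted in limma over all 8 arrays in 4 groups, and a gene passed when its p, adjusted by the Benjamini-Hochberg method over all 24357 genes, was under 0.05. C-IAAPs had 1 array, which was assumed to vary like the 3 days of E-IAAPs and E-AT2s, so days stand in for replicates and the genotype and the single C-IAAP array cannot be told apart. Every comparison below rests on that array and none can be made without it. It stood apart from the rest: its correlation with each of the other 7 arrays over all genes was 0.845 to 0.876, against 0.915 to 0.971 among those 7. The background level of an array was taken as the 95 percentile of 1394 olfactory, vomeronasal and taste receptor genes, and it was 8.67 on the C-IAAP array, 6.45 to 7.28 on the E-IAAP arrays and 6.62 to 7.05 on the AT2 arrays. Accordingly, 26.61% of genes were above it in C-IAAPs and 40.74% to 46.52% on the other 7 arrays. Where a signal lay below it, any fold printed is a lower bound, and the fitted difference is no fold of expression. A fitted difference between signals that both lie below 8.67 gives no readable fold, even where it passed. Whether an array holds cells of 1 animal or of a pool is not given in the sources used here.

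Of all genes, 17.1% passed the test between E-IAAPs and C-IAAPs, 9.34% higher and 7.74% lower in E-IAAPs, while 33.9% had all 3 E-IAAP arrays above C-IAAPs and 40.0% had all 3 below. Of the genes that met the rule, 701 passed, 363 of the 1465 higher genes (24.8%) and 338 of the 2115 lower genes (15.98%). Since the rule used this comparison, nothing is read from those shares. Counts of list genes that passed are to be read beside the 9.34% higher and 7.74% lower of all genes. The balance between directions depended on the scale. When 19 genes that every cell uses served to centre each array, 1041 genes of the rule passed, of which 234 were higher and 807 lower, and the median difference over all genes moved from -0.10 to -0.46. The values below are on the deposited scale, and this other centring is named where it turns a sign; all are relative to a median of -0.10 over all genes.

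**Figure D1:**
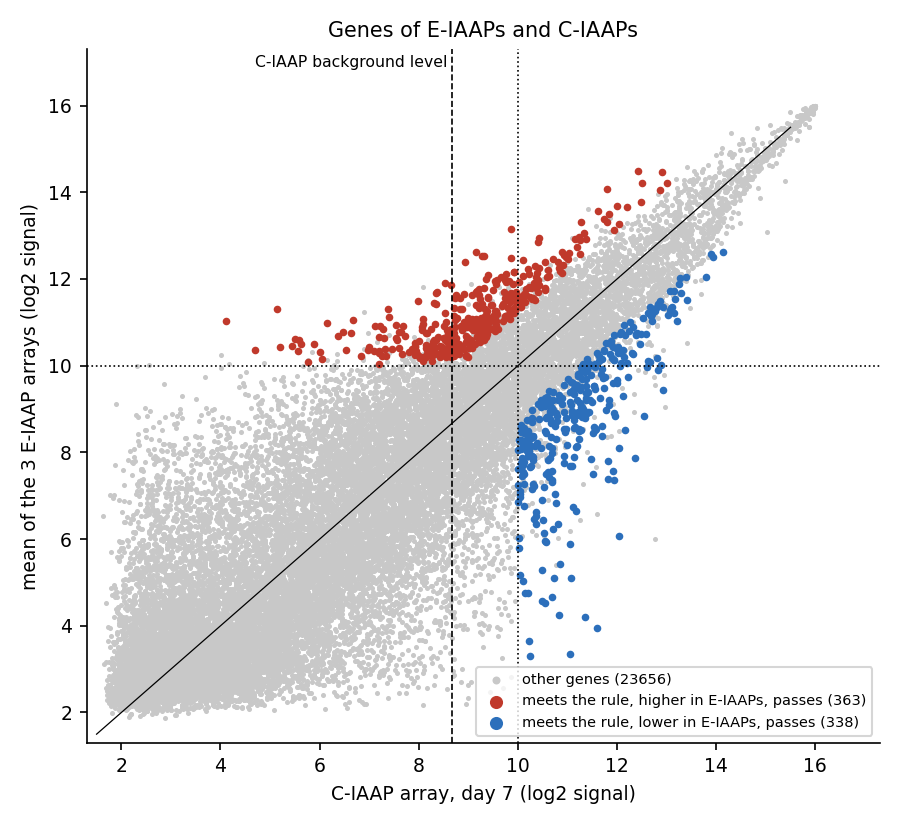
Log2 signal of each gene on the C-IAAP array (horizontal axis) against the mean log2 signal of the 3 E-IAAP arrays (vertical axis). Red and blue points are the 363 higher and 338 lower genes that met the rule and passed, dotted lines mark the threshold of 10, the dashed line marks the C-IAAP background level of 8.67 and the solid line marks equal signals; most genes lie far below the threshold, where the 2 axes spread widely.

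The AT2 arrays place each gene. Of the 363 higher genes, the C-IAAP array was the lowest of all 8 arrays in 334, and the mean of E-IAAPs lay within the range of the 4 AT2 arrays in 183. The rule itself places C-IAAPs below E-IAAPs, and among all 1465 higher genes C-IAAPs were the lowest of 8 in 1178. Over all genes, without that selection, C-IAAPs were the lowest of 8 in 25.9% and the highest in 30.7%, and nothing is read from the gap. The median of the 363 genes was 9.13 in C-IAAPs, 11.02 in E-IAAPs and 10.94 in AT2s, so that the medians of E-IAAPs and AT2s lay close together and that of C-IAAPs below them. In 64 of the 363, all 3 E-IAAP arrays lay above the other 5, as in 225 of the 1465 higher genes. This held for 3.65% of all genes, and since the rule used this contrast nothing is read from the gap. Of the 64, 14 were in a list of named function, 5 of them alveolar macrophage genes, 3 lysosomal, 2 of leukocytes, 2 of MHC class I presentation, 1 of complement and 1 of the transitional state. These 64 genes are taken first.

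Complement factor B (Cfb), a serine protease of the alternative complement pathway that airway and alveolar cells and macrophages can make, had the largest fitted difference of the 363. The log2 signal of Cfb was 4.11 in C-IAAPs and 10.99, 10.35 and 11.76 in E-IAAPs of days 4, 7 and 14, against 4.94 to 7.18 in AT2s. C-IAAPs were the lowest and E-IAAPs the highest of all arrays for Cfb, with a fitted difference of 6.92 ± 0.63 (adjusted p = 0.00222) and, against the background of the C-IAAP array, at least 5.14-fold more signal in E-IAAPs. Pparg, which sets the program of alveolar macrophages and is also used in lipid handling, read 5.51 in C-IAAPs and 10.50, 10.40 and 10.96 in E-IAAPs, at least 3.86-fold higher (difference 5.11 ± 0.38, adjusted p = 0.00162). Slco2b1, a transporter of organic anions, read 5.20 in C-IAAPs, 10.54, 10.36 and 10.41 in E-IAAPs and 3.17 to 5.95 in AT2s, at least 3.40-fold higher in E-IAAPs (difference 5.24 ± 0.72, adjusted p = 0.00633). In both genes the 3 days lay close together and far from the other 5 arrays. Only 1 of the 2 spots of Slco2b1 had this sign.

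In all 12 genes with the largest fitted rises C-IAAPs were below the background level, so no order among them is read. The others of these 12 with E-IAAPs above all other arrays were Trp53bp1, Sulf2, Ubash3b, Rassf4 and Plek. Plek encodes pleckstrin, a protein of platelets and leukocytes. It read 6.67 in C-IAAPs and 10.74 to 11.43 in E-IAAPs, at least 5.23-fold higher (difference 4.39 ± 0.65, adjusted p = 0.00795), and in AT2s it ranged from 2.51 to 6.82. The mean of its 2 spots did not pass. Rassf4, a Ras association domain protein, read 5.89 in C-IAAPs, 10.38 to 10.71 in E-IAAPs and 2.61 to 7.13 in AT2s. Ubash3b, a phosphatase that restrains receptor signaling in blood cells, read 5.45 in C-IAAPs, 10.11 to 10.67 in E-IAAPs and 3.73 to 6.57 in AT2s, and did not pass without day 4. For these 3 genes C-IAAPs lay inside the AT2 range. Sulf2, which trims sulfate from heparan sulfate chains that bind FGFs, read 5.58 in C-IAAPs, 10.40 to 10.73 in E-IAAPs and 8.23 to 9.14 in AT2s, and Trp53bp1, a DNA break repair protein, read 4.70, 10.10 to 10.66 and 8.96 to 10.07. Here C-IAAPs were the lowest of all arrays.

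**Figure D2:**
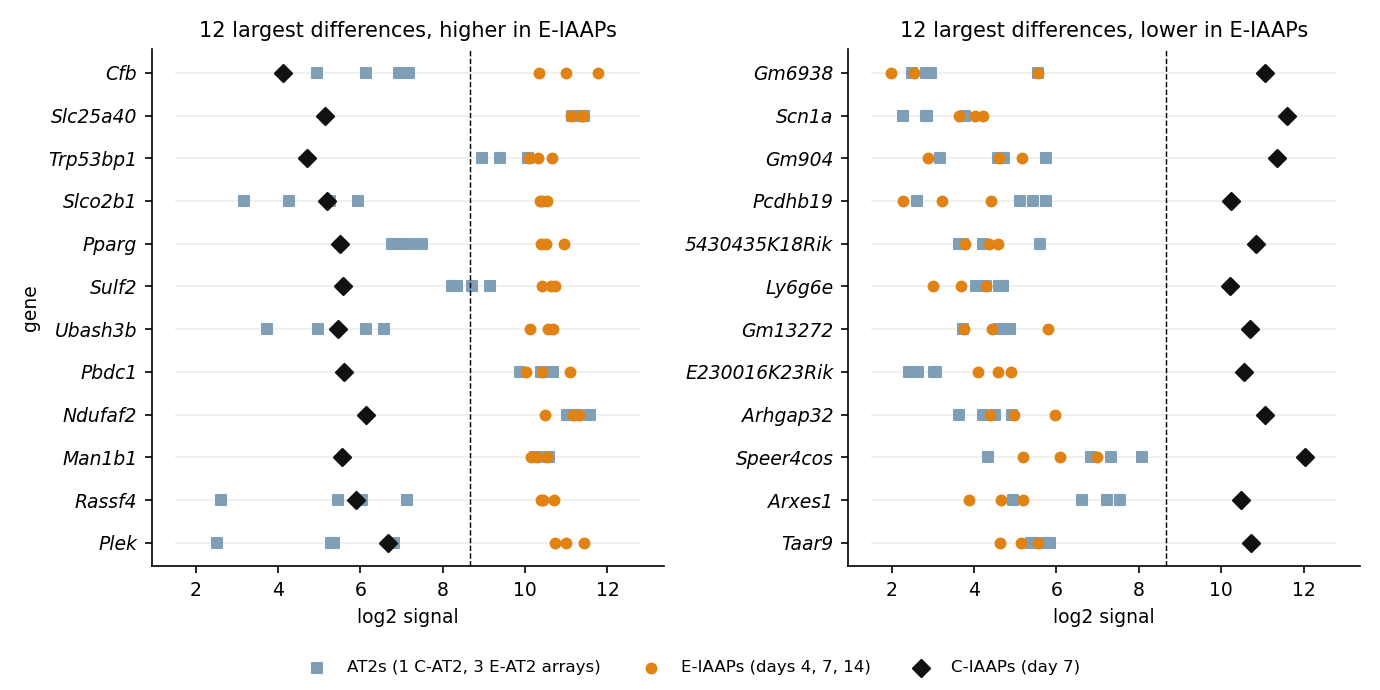
Log2 signal (horizontal axis) of the 12 genes with the largest fitted rise (left) and fall (right) among genes that met the rule and passed. Black diamonds are the C-IAAP array, orange points the 3 E-IAAP arrays, blue squares the 4 AT2 arrays and the dashed line the C-IAAP background level of 8.67; in every fall the C-IAAP array is alone on the right, while in the rises E-IAAPs are either alone, as in Cfb and Slco2b1, or together with AT2s, as in Slc25a40 and Man1b1.

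Every alveolar macrophage gene that passed was higher in E-IAAPs. Of 23 measured markers, 16 were bright, 15 of them were higher in E-IAAPs and 1 was lower, and 8 of 23 passed, all higher, 5 of them under the rule. The list had a median difference of 1.56 against -0.10 over all genes. Besides Pparg, the 4 others under the rule were Siglecf, Fabp4, Itgax and Car4. Siglecf, a sialic acid receptor of alveolar macrophages and eosinophils, read 8.92 in C-IAAPs and 12.14, 12.11 and 12.91 in E-IAAPs (difference 3.46 ± 0.60, adjusted p = 0.0123), with 4.47 to 5.85 in AT2s. C-IAAPs thus lay above all AT2 arrays, and E-IAAPs above C-IAAPs, although the mean of its 2 spots did not pass. Fabp4, a fatty acid carrier and target of Pparg, read 5.77 in C-IAAPs and 10.02 to 10.14 in E-IAAPs (difference 4.31 ± 0.45, adjusted p = 0.00302). Itgax (Cd11c) read 7.32 and 10.14 to 10.52, and Car4, a carbonic anhydrase, 7.81 and 10.03 to 10.82. With C-IAAPs below background, Fabp4, Itgax and Car4 were at least 2.66-fold, 3.26-fold and 3.11-fold higher in E-IAAPs.

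The abundant markers of the same cells were high in both IAAP groups and did not pass. Chil3 (Ym1), a secreted lectin, read 14.51 in C-IAAPs and 15.03 to 15.37 in E-IAAPs, against 9.75 to 11.33 in AT2s (difference 0.72 ± 0.63, adjusted p = 0.468). Abcg1, a cholesterol exporter, read 13.24 and 13.52 to 13.70, against 6.14 to 8.88 in AT2s (adjusted p = 0.81). Marco, a scavenger receptor, read 11.41 and 13.45 to 13.80, against 7.15 to 9.95 in AT2s (difference 2.19 ± 1.03, adjusted p = 0.189). In these 3 genes the C-IAAP array was above every AT2 array and below every E-IAAP array. Another 3 genes of the list passed outside the rule and are named after their values were seen. Mertk, a receptor for dying cells, read 4.39 in C-IAAPs and 7.27 to 7.61 in E-IAAPs, Ctsk 3.61 and 5.83 to 7.17, and F7 7.10 and 8.61 to 9.13. Mertk and Ctsk lay below the C-IAAP background level in both groups, so for these 2 of the 8 no rise is read.

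Over the whole macrophage list, the summed signal was 15.82 on the log2 scale in C-IAAPs, 16.68 to 16.99 in E-IAAPs and 12.31 to 13.06 in AT2s. The number of its 23 genes above background was 14 in C-IAAPs, 21 to 23 in E-IAAPs and 7 to 14 in AT2s. The general leukocyte and myeloid list gave 16.70 in C-IAAPs, 17.07 to 17.24 in E-IAAPs and 15.82 to 16.08 in AT2s, with 14, all and 10 to 13 of its 22 genes above background. These counts use the background level of each array, which was 8.67 in C-IAAPs and 6.45 to 7.28 in E-IAAPs. Over all genes, 26.61% were above it in C-IAAPs and 40.74% to 46.52% on the other 7 arrays. Nothing is therefore read from the rise of these counts between C-IAAPs and E-IAAPs. Ptprc (Cd45), the surface protein of all leukocytes, read 12.93 in C-IAAPs, 12.38 to 12.79 in E-IAAPs and 7.67 to 8.41 in AT2s. In these amplified samples of sorted cells, more cells that use a gene and more RNA per cell cannot be told apart, and the part of macrophages and other leukocytes in the higher genes of E-IAAPs was not tested.

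**Figure D3:**
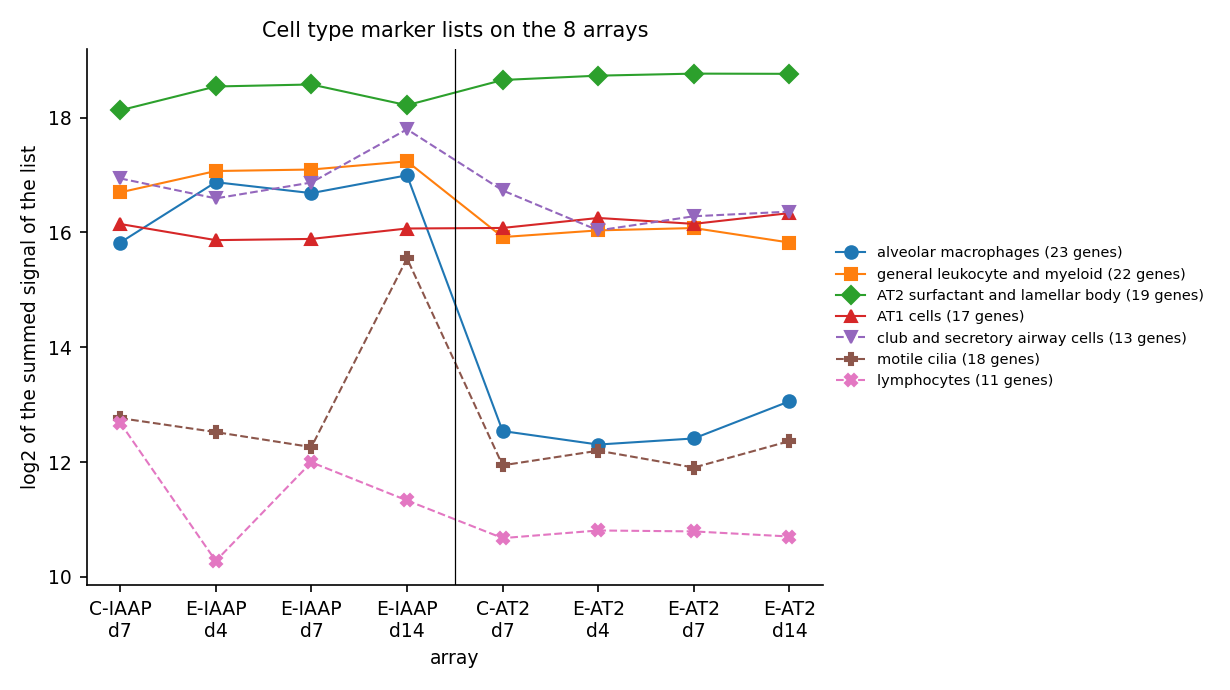
Log2 of the summed signal of 7 cell type marker lists (vertical axis) on each of the 8 arrays (horizontal axis), with IAAPs left and AT2s right of the line. The alveolar macrophage list is at 15.82 in C-IAAPs, at 16.68 to 16.99 in E-IAAPs and at 13.06 or less in AT2s, and the motile cilia list is at 15.55 on the E-IAAP array of day 14 alone.

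In the leukocyte list, 10 bright genes were higher and 2 lower in E-IAAPs, and 5 of 22 passed, all higher, of which Cd68 and Adgre1 met the rule (list median 0.76). Cd68, a lysosomal membrane protein of macrophages, read 8.31 in C-IAAPs, 11.29 to 11.64 in E-IAAPs and 7.70 to 9.00 in AT2s, at least 6.89-fold higher in E-IAAPs (difference 3.14 ± 0.52, adjusted p = 0.0107). Adgre1, a surface receptor of mature macrophages, read 7.86, 10.21 to 10.71 and 4.04 to 5.60 (adjusted p = 0.0418). It did not pass whichever day was left out, or with the other centring. The integrin chain Itgb2 and the adaptor Tyrobp did not pass. The Itgb2 spot read 13.36 in C-IAAPs and 14.15 to 14.22 in E-IAAPs (adjusted p = 0.387), and Tyrobp 13.17 and 13.30 to 13.58 (adjusted p = 0.629, and a difference of -0.09 with the other centring). The other genes of the list that passed did not meet the rule, namely Spi1, the factor PU.1 of the myeloid line, at 8.06 and 9.75 to 9.94, Fcgr3 at 7.29 and 9.47 to 9.99, and Cd14 at 6.74 and 8.94 to 9.68, as seen after their values were known.

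The study follows 3 surface proteins of the immune system in IAAPs, and none of them passed. Cd274 (Pd-l1), the ligand that restrains T cells through Pd-1, read 10.53 in C-IAAPs and 10.28, 9.51 and 10.53 in E-IAAPs, with day 14 level with the control and the other days below it (difference -0.42 ± 0.75, adjusted p = 0.739). In AT2s it ranged from 3.42 to 5.31, so that both IAAP groups were far above AT2s. Cd33, a sialic acid receptor of myeloid cells, read 9.59 in C-IAAPs and 9.01, 8.48 and 9.08 in E-IAAPs, against 2.22 to 4.28 in AT2s (adjusted p = 0.561). Cd300lf, another myeloid receptor, read 7.78 in C-IAAPs and 9.96, 9.48 and 9.77 in E-IAAPs, at least 2.10-fold higher (difference 1.96 ± 0.58, adjusted p = 0.0616), against 3.84 to 5.30 in AT2s.

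Lysosomal genes formed the second group among the 64. Of 26 measured enzymes and membrane proteins, 9 met the rule higher and 5 lower, and 6 passed, all higher, 4 of them under the rule, while the list median was 0.13. With the other centring that median was -0.24. Ctsd (cathepsin D), an acid protease, read 11.85 in C-IAAPs and 13.41, 13.63 and 13.45 in E-IAAPs, against 11.45 to 11.68 in AT2s (difference 1.65 ± 0.33, adjusted p = 0.0185). Hexa, which splits sugars from gangliosides, read 9.23 and 11.39 to 11.78 (adjusted p = 0.012), and Man2b1, a mannosidase, 8.80 and 10.16 to 10.62 (adjusted p = 0.0423), and both were above all AT2 arrays. Ctsl (cathepsin L) read 9.26 in C-IAAPs and 10.98 to 11.22 in E-IAAPs, within the 10.77 to 11.32 of AT2s (adjusted p = 0.0142). For Ctsl and Hexa the C-IAAP array was the lowest of 8, whereas for Ctsd it lay above the AT2 arrays and for Man2b1 among them. Man2b1 did not pass whichever day was left out, or with the other centring.

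Lgals3 (galectin 3), a sugar-binding protein of macrophages and of AT2s on their way to AT1 cells, rose from 9.40 in C-IAAPs to 11.55, 11.51 and 11.63 in E-IAAPs, against 8.80 to 9.38 in AT2s (difference 2.16 ± 0.33, adjusted p = 0.00873), and all of its 11 spots had the same sign. It was the only gene under the rule of 14 measured in the list of the AT2-to-AT1 transitional state to pass. Anxa2 read 10.51 and 11.31 to 11.72 (adjusted p = 0.0926), Anxa1 10.30 and 11.05 to 12.07 (adjusted p = 0.196) and Krt19 10.04 and 10.52 to 11.03 (adjusted p = 0.373), and in all 3 genes E-IAAPs lay above the other 5 arrays. The immunoproteasome subunits Psmb8 and Psmb9, which cut peptides for MHC class I, read 9.37 and 9.48 in C-IAAPs. In E-IAAPs Psmb8 read 11.12 ± 0.19 (SD, n = 3 days, adjusted p = 0.0195) and Psmb9 11.24 to 11.62 (adjusted p = 0.0128), above the AT2 ranges of 10.27 to 10.72 and 10.51 to 10.75. Psmb8 did not pass without day 4, and Psmb9 not with the mean of its 2 spots. The class I chains H2-D1 (14.27 and 14.81 to 15.07) and H2-K1 (13.55 and 14.20 to 14.87) did not pass. In the class I list, 4 of 12 genes passed higher and 1 lower, with a median of 0.91.

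The promoters of these genes were read for letters bound by factors that are known in lysosome and myeloid genes. TFEB and its relatives bind E-boxes of the form TCACGTGA in lysosomal promoters, and PU.1 binds sites that hold GAGGAAGT. They were searched on both strands of RefSeq promoters (build GRCm38.p6), from 250 bases before to 50 after each start. The first reads the same on both strands, so each match is on both. Of the 64 genes, 55 had a promoter in the table, and 3 (5.45%) held TCACGTGA, namely Ctsd, Ifi30 and Apex1, against 265 (1.38%) of 19207 measured genes. GAGGAAGT was in 1 (1.82%), Slco2b1, against 670 (3.49%). The cyclic AMP response element TGACGTCA was searched as well and was in none, against 471 (2.45%). Among the 298 other higher genes with C-IAAPs lowest, 251 of them with a promoter, TGACGTCA was in 5.58%, GAGGAAGT in 4.78% and TCACGTGA in 2.79%. Among the macrophage and leukocyte lists, GAGGAAGT was in 3 of 33 promoters (9.09%) and TCACGTGA in none. Among the 338 lower genes, with 265 promoters, the shares were 3.77%, 3.4% and 1.89% for TGACGTCA, GAGGAAGT and TCACGTGA. A match is a description of letters only. The promoters of 3 genes are printed, with the matched letters in capitals, as examples: 2 lysosomal genes with the E-box and the 1 gene with the PU.1 letters. Ifi30, a lysosomal reductase for antigens, was chosen for its match and read 9.80 in C-IAAPs and 11.42 to 11.65 in E-IAAPs (adjusted p = 0.0214). The match starts at base -99 from the start site in Ctsd, at -197 in Ifi30 and at 6 in Slco2b1, and all 3 genes lie on the minus strand.
Ctsd, chr7:142387778-142388077: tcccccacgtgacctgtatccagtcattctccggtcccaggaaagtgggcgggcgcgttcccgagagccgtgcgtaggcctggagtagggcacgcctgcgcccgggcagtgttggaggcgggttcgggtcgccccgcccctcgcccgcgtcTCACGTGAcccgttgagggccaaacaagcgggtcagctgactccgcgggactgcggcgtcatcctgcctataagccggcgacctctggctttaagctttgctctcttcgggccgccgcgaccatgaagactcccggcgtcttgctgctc
Ifi30, chr8:70766614-70766913: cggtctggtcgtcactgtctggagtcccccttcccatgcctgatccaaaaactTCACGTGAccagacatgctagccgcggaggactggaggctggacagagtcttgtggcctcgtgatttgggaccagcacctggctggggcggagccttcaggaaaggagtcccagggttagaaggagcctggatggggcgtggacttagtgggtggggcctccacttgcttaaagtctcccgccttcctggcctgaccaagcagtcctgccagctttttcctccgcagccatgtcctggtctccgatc
Slco2b1, chr7:99711291-99711590: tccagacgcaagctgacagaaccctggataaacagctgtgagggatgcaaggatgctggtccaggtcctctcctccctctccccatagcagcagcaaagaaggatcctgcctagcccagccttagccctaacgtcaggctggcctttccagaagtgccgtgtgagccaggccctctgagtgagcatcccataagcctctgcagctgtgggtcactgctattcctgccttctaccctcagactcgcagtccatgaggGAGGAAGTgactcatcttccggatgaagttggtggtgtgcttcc

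In a second and larger class, 183 of the 363 higher genes, the mean of E-IAAPs lay within the range of the 4 AT2 arrays. Some higher genes belonged to neither class. Of the 12 largest rises, Slc25a40, Pbdc1 and Man1b1 belonged to the second class, and the mean of Ndufaf2, 10.99, lay just below its AT2 range. Slc25a40, a mitochondrial carrier needed for glutathione import, read 5.13 in C-IAAPs, 11.12, 11.41 and 11.37 in E-IAAPs and 11.14 to 11.42 in AT2s (difference 6.17 ± 0.33, adjusted p = 0.00118), at least 6.20-fold higher. This rests on the brightest of its 4 spots, since the other 3 had the opposite sign and the mean of all spots did not pass. Ndufaf2, an assembly factor of complex I, read 6.14, 10.50 to 11.32 and 11.03 to 11.59, Pbdc1 5.61, 10.02 to 11.10 and 9.88 to 10.67, and Man1b1, a mannosidase of the endoplasmic reticulum, 5.56, 10.16 to 10.54 and 10.24 to 10.57. In all 4 genes the 7 other arrays overlapped and the C-IAAP array alone was low. Only 1 of the 2 spots of Man1b1 had this sign.

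Of the epithelial junction genes, Epcam and F11r passed under the rule. Epcam, the surface protein used in the sort, read 8.72 in C-IAAPs and 11.03, 10.88 and 11.21 in E-IAAPs, against 11.05 to 11.38 in AT2s (difference 2.32 ± 0.34, adjusted p = 0.00745). F11r, a tight junction adhesion molecule, read 9.15 in C-IAAPs and 12.12, 12.65 and 13.07 in E-IAAPs, against 12.00 to 12.91 in AT2s (difference 3.46 ± 0.54, adjusted p = 0.00887). The C-IAAP signal of Epcam was thus just above the background of its array, while that of E-IAAPs was like that of AT2s. Of 21 genes of adhesion and tight junctions, 6 met the rule higher and 5 lower, and 4 passed, all higher. The list median was 0.24 on the deposited scale and -0.13 with the other centring.

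In the respiratory chain, whose complexes make ATP in mitochondria, 21 of 36 measured genes met the rule higher and 4 lower, and 5 passed, all higher. C-IAAPs were the lowest of all 8 arrays in 24 of the 36, against 25.9% of all genes, and 9.34% of all genes passed higher. Sdhc, a membrane anchor of complex II, read 9.55 in C-IAAPs, 11.79, 12.10 and 12.00 in E-IAAPs and 11.74 to 12.50 in AT2s (difference 2.42 ± 0.41, adjusted p = 0.0118). The partner Sdha read 9.07, 10.31 to 10.48 and 10.18 to 10.50. Ndufa8 of complex I read 9.19, 10.79 to 11.12 and 10.66 to 11.47, and the ATP synthase genes Atp5c1 and Atp5d read 8.75 and 9.85 in C-IAAPs against 10.32 to 10.55 and 10.95 to 11.19 in E-IAAPs. Sdha and Atp5d did not pass with the mean of spots, with the other centring or whichever day was left out. Ndufa8 did not pass whichever day was left out. The median of the list was 0.41, but 0.04 with the other centring.

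Of 44 ribosomal protein genes measured, 29 met the rule higher and 6 lower, 4 passed, all higher, and C-IAAPs were the lowest array in 27. The share that passed was close to the 9.34% of all genes that passed higher. Over all genes C-IAAPs were the lowest array in 25.9%. Rps2 read 9.54 in C-IAAPs, 11.05, 11.04 and 11.16 in E-IAAPs and 10.91 to 11.08 in AT2s (difference 1.55 ± 0.32, adjusted p = 0.0204), and all 12 of its spots had this sign. Rps7 read 9.75 and 10.94 to 11.27, Rpl28 12.86 and 13.99 to 14.14, and Rpl15 12.49 and 13.57 to 14.01. Only 1 of the 11 spots of Rpl15 had this sign and the mean of its spots gave -0.35, so its direction depends on the spot. Rpl28 and Rpl15 did not pass whichever day was left out, and Rps7 and Rps2 not without day 4 and Rps7 not without day 7. With the other centring Rpl28, Rpl15 and Rps7 did not pass, nor did Rpl28 and Rpl15 with the mean of spots. The list median was 0.40, and 0.03 with the other centring. Among the genes that serve that centring, Vcp (11.03 in C-IAAPs and 12.53 to 12.64 in E-IAAPs, adjusted p = 0.0189) and Psmb2 (10.29 and 11.50 to 11.62, adjusted p = 0.0444) also passed, the median of these 19 genes was 0.34, and neither passed with the mean of spots. Psmb2 also did not pass whichever day was left out, or with the other centring.

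**Figure D4:**
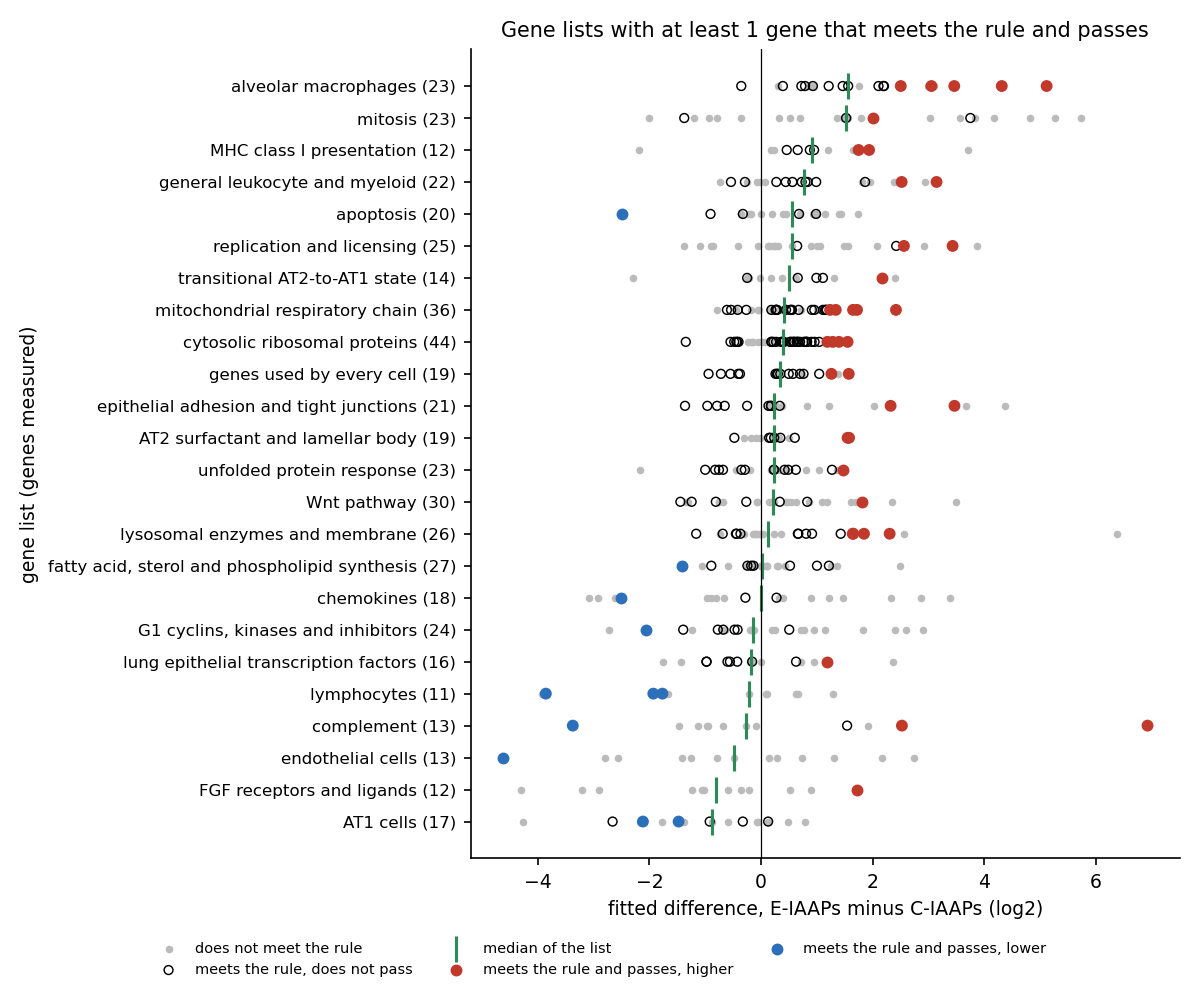
Fitted difference E-IAAPs minus C-IAAPs (log2, horizontal axis) of the genes of 24 lists (vertical axis, with the number of genes measured) that hold at least 1 gene that met the rule and passed. Filled red and blue points met the rule and passed, open points met the rule and did not pass, grey points did not meet it and green bars are list medians; alveolar macrophage genes have the highest median, 1.56, and AT1 genes the lowest, -0.89, or -0.20 over the bright ones alone.

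Of 19 measured genes of surfactant and lamellar bodies, all were bright, 7 met the rule higher and 1 lower, and 2 passed, both higher, a share close to that of all genes. Sftpc, the surfactant protein whose locus drives Cre, read 15.79 in C-IAAPs and 15.89, 15.97 and 15.96 in E-IAAPs, near the top of the range of the arrays (adjusted p = 0.786, and a difference of -0.22 with the other centring). Sftpb read 13.69 and 14.75, 14.39 and 13.44 (adjusted p = 0.578), and Sftpa1 14.21 and 13.88, 14.24 and 13.99 (adjusted p = 0.759), with days on both sides of the control in each. The genes that passed were Lcn2, an iron-trapping defence protein, with 12.90 in C-IAAPs and 14.29 to 14.74 in E-IAAPs (difference 1.58 ± 0.36, adjusted p = 0.0283), and the secreted protein Egfl6, with 11.19 and 12.27 to 13.01 (difference 1.55 ± 0.41, adjusted p = 0.044). In both, C-IAAPs were the lowest of 8 arrays, and neither passed without day 4 or without day 7, or with the other centring. The summed signal of the list was 18.13 in C-IAAPs, 18.22 to 18.58 in E-IAAPs and 18.65 to 18.77 in AT2s.

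Of 16 transcription factors of lung epithelium, 2 met the rule higher and 6 lower, and Foxa2 alone passed under the rule. Foxa2, which opens chromatin of surfactant genes, read 11.94 in C-IAAPs, 13.22, 13.12 and 13.02 in E-IAAPs and 13.44 to 13.62 in AT2s (difference 1.18 ± 0.32, adjusted p = 0.0474). It did not pass whichever day was left out, or with the other centring. Cebpa, needed for AT2 maturation, read 14.28 and 14.39 to 15.17 (adjusted p = 0.386). None of the 6 lower genes passed. Among these 6, Nkx2-1 read 14.05 in C-IAAPs and 13.44 to 13.91 in E-IAAPs. Foxp1 read 12.26 and 10.97 to 11.45, and Foxa1 10.84 and 10.20 to 10.27. In Nkx2-1, Foxp1 and Foxa1 all E-IAAP arrays lay below the other 5. The list median was -0.19, or -0.32 over its bright genes, against -0.10 over all genes.

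Of 20 measured targets of FGF signaling, 1 met the rule higher and 5 lower, none of these passed, 1 passed in each direction outside the rule, and the list median was -0.46 against -0.10 over all genes. Etv5, which keeps AT2 identity downstream of FGF and ERK, read 13.18 in C-IAAPs and 12.38, 12.39 and 11.85 in E-IAAPs, against 12.37 to 12.75 in AT2s (difference -0.98 ± 0.39, adjusted p = 0.128). Etv4 read 11.32 in C-IAAPs and 9.95, 10.21 and 10.45 in E-IAAPs (difference -1.12 ± 0.38, adjusted p = 0.0909), against 9.46 to 9.94 in AT2s. In both genes all E-IAAP arrays were below C-IAAPs, which were the highest of 8. Spred2, an inhibitor of ERK signaling that FGF induces, read 11.51 and 9.70 to 10.98, and Spry1, another, ran the other way with 10.21 and 10.29 to 11.17. Among receptors and ligands Fgf1 passed, with 12.50 in C-IAAPs, 14.26, 14.31 and 14.11 in E-IAAPs and 14.41 to 14.87 in AT2s (difference 1.72 ± 0.35, adjusted p = 0.0197), with C-IAAPs the lowest of 8. It did not pass without day 4 or with the mean of its 3 spots.

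Of 25 replication genes 5 passed and of 23 mitosis genes 3 passed, all higher, with list medians of 0.55 and 1.52, but most were dim, since 18 and 17 of them lay below background in C-IAAPs. Between E-AT2s and C-AT2s the medians of the same lists were 1.01 and 1.96. The higher medians were thus not particular to IAAPs. Mcm6, a subunit of the replicative helicase, read 9.17 in C-IAAPs and 11.40, 11.94 and 11.84 in E-IAAPs (difference 2.56 ± 0.49, adjusted p = 0.0166). Rrm1, of the enzyme that makes deoxynucleotides, read 6.99 and 10.27, 10.14 and 10.86, at least 3.37-fold higher (adjusted p = 0.00914), and Pttg1 (securin), which restrains the separation of sister chromatids, 8.99 and 10.87 to 11.09 (adjusted p = 0.0312). For all 3 genes C-IAAPs were the lowest of 8 arrays. Pttg1 did not pass whichever day was left out, with the mean of its 2 spots or with the other centring. Mki67, the proliferation antigen, read 9.62 in C-IAAPs and 10.91, 10.89 and 11.63 in E-IAAPs, but ranged from 6.45 in C-AT2s to 12.35 in E-AT2s and did not pass (adjusted p = 0.393). Birc5 likewise read 8.08 and 11.08 to 12.62 with 7.85 to 12.54 in AT2s (adjusted p = 0.154).

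Of the cyclins that the study follows, neither passed. Ccnd1 read 10.79 in C-IAAPs and 11.41, 11.11 and 11.36 in E-IAAPs (difference 0.50 ± 0.33, adjusted p = 0.337). Ccnd2 read 10.18 and 10.24, 10.10 and 10.75 (adjusted p = 0.794), and its sign turned with the centring, with the mean of its spots and without day 14. Cdkn1b (p27), which brakes the G1 cyclin kinases, passed in the other direction, with 10.55 in C-IAAPs and 8.63, 8.63 and 8.23 in E-IAAPs against 8.52 to 9.41 in AT2s (difference -2.05 ± 0.36, adjusted p = 0.0126).

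In all 338 lower genes that passed, the C-IAAP array was the highest of the 8, as in 1812 of all 2115. Their median was 11.13 in C-IAAPs, 8.93 in E-IAAPs and 8.93 in AT2s, and in 170 the mean of E-IAAPs lay within the AT2 range. In 36 of them E-IAAPs were below the other 5 arrays, as in 194 of all 2115 lower genes. This held for 3.15% of all genes, and since the rule used this contrast nothing is read from the gap. In 25 of the 338 the signal was below background on all 3 E-IAAP arrays, and in 21 on all 7 arrays other than C-IAAPs. Of the 338, 9 were olfactory, vomeronasal or taste receptor genes, the kind used to set the background level. So were 28 of the 2115 lower genes and 0 of the 363 higher genes that passed, with 1394 such genes among all measured. Long non-coding RNAs made up 33 of the 338 and 4 of the 363.

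In the 12 largest falls C-IAAPs read between 10.22 in Ly6g6e and 12.04 in Speer4cos. Scn1a, a sodium channel of neurons, read 11.60 in C-IAAPs, 4.21, 4.01 and 3.65 in E-IAAPs and 2.28 to 3.77 in AT2s (difference -7.65 ± 0.49, adjusted p = 0.00127), at least 26.3-fold lower in E-IAAPs, but 2 of its 5 spots had the other sign and their mean did not pass. Taar9, a receptor for trace amines in olfactory neurons, read 10.72, 4.63 to 5.55 and 5.39 to 5.84 (at least 14.3-fold lower in E-IAAPs, adjusted p = 0.00171). Arhgap32 read 11.07, 4.39 to 5.95 and 3.63 to 4.91 (at least 18.2-fold lower, adjusted p = 0.003). The protocadherin Pcdhb19, Ly6g6e, Arxes1, Speer4cos, Gm6938, Gm904, Gm13272, 5430435K18Rik and E230016K23Rik made up the rest, with fitted differences of -7.70 to -5.91. Several of these genes are used mainly in neurons, testis or the olfactory epithelium, and in all 12 no other array read above 8.08.

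Of 17 AT1 genes, 4 passed, all lower. The list median was -0.89, but over its 10 bright genes it was -0.20, against -0.19 over all bright genes. Clic5, a chloride channel of AT1 cells, read 11.91 in C-IAAPs and 10.32, 10.38 and 10.60 in E-IAAPs, against 10.69 to 11.14 in AT2s (difference -1.48 ± 0.36, adjusted p = 0.034), so that E-IAAPs were below all other arrays, but it did not pass without day 4 or day 7, or with the mean of its 2 spots. Only 1 of these 2 spots had this sign. Akap5, an anchor of protein kinase A, read 11.37 and 8.94 to 9.82 (adjusted p = 0.0444), and did not pass without day 4 or day 14. Outside the rule, Rtkn2 read 9.58 in C-IAAPs and 4.79 to 5.61 in E-IAAPs, and passed, as seen after its values were known. Igfbp2 passed as well but lay below background in both groups, so no fall is read for it. Ager, the most abundant AT1 gene, read 14.15 and 14.17 to 14.35 (adjusted p = 0.823, and a difference of -0.24 with the other centring), and the summed AT1 signal was 16.15 in C-IAAPs, 15.87 to 16.07 in E-IAAPs and 16.08 to 16.34 in AT2s.

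A few lymphocyte and endothelial genes were also brightest in C-IAAPs. Cd3e, a chain of the T cell receptor complex, read 10.33 in C-IAAPs, 5.04, 6.90 and 7.48 in E-IAAPs and 5.51 to 6.73 in AT2s (difference -3.86 ± 0.91, adjusted p = 0.032). Cd4 read 11.28, 9.19 to 9.88 and 8.87 to 9.54, and the B cell gene Ms4a1 (Cd20) 10.10, 7.78 to 8.55 and 7.40 to 8.19. These were the 3 bright lymphocyte genes under the rule, of 11 measured. They were bright only through C-IAAPs, so the filter set their direction and nothing is read from it. All 3 passed, but Cd4 and Ms4a1 not without day 4 or day 7, and Cd3e not without day 7. Over all 11 genes the median difference was -0.22 against -0.10 over all genes. Cdh5 (VE-cadherin) of endothelial junctions read 10.56, 4.79 to 7.29 and 4.78 to 6.49 (difference -4.62 ± 0.89, adjusted p = 0.0174), and was the only endothelial gene of 13 above background in C-IAAPs. Cdh5 too was bright only through C-IAAPs. Of the 13, 1 passed higher and 2 lower, C-IAAPs were the highest array in 6 and the list median was -0.49. The summed lymphocyte signal was 12.69 in C-IAAPs, 10.28 to 12.00 in E-IAAPs and 10.68 to 10.81 in AT2s.

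Complement genes moved both ways. C3, the central component, read 10.43 in C-IAAPs, 12.98, 12.89 and 13.00 in E-IAAPs and 13.06 to 13.25 in AT2s (difference 2.52 ± 0.32, adjusted p = 0.00498), with the C-IAAP array below all others. Cd59a, which protects cells from the complement pore, read 10.13 in C-IAAPs and 6.91, 6.92 and 6.43 in E-IAAPs, against 6.93 to 7.64 in AT2s (difference -3.37 ± 0.41, adjusted p = 0.00441). The E-IAAP and AT2 signals of Cd59a lay near or below the background levels of their arrays, so no order between these groups is read. Of 13 measured complement genes, 3 passed higher and 1 lower. Ccl9, a chemokine of myeloid cells, read 11.44 in C-IAAPs and 8.23 to 9.30 in E-IAAPs (adjusted p = 0.0495), against 5.34 to 6.83 in AT2s, and did not pass whichever day was left out.

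Of 24 immediate early and heat shock genes, 2 met the rule higher and 7 lower, none passed, and the median was -0.27. Fos read 12.93 in C-IAAPs and 11.51, 11.84 and 11.73 in E-IAAPs (adjusted p = 0.0597), Klf2 13.41 and 9.22, 11.51 and 10.84 (adjusted p = 0.0984), and Egr2, which alveolar macrophages use, 12.30 and 13.44, 13.24 and 13.14 with 6.82 to 7.56 in AT2s (adjusted p = 0.138).

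The SD over the 3 days of E-IAAPs had a median of 0.17 for the 363 higher genes and 0.31 for the 338 lower ones, against 0.20 over all genes of the rule. Both passing and brightness favour a low SD, so nothing is read from this. Day 14 differed from the other days in airway genes. The summed signal of 18 motile cilia genes was 12.52, 12.26 and 15.55 on days 4, 7 and 14, against 12.77 in C-IAAPs and 11.90 to 12.37 in AT2s. Foxj1, the master factor of motile cilia, read 7.35, 8.68 and 12.62, against 7.79 in C-IAAPs. The secretory airway protein Scgb3a2 read 11.23, 11.90 and 14.94, against 12.54 in C-IAAPs and 9.50 to 10.10 in AT2s, and both genes were named after their values were seen. None of the 18 cilia genes passed higher, and airway genes therefore separated day 14 from the other days rather than E-IAAPs from C-IAAPs. The part of airway cells on that array was not tested.

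The same genotypes were compared in AT2s, in the same fit and with the same estimate of spread, and the difference between both effects was tested. Over all genes 4.35% passed this test. Among the genes of the rule 131 passed, 76 of those higher and 55 of those lower in E-IAAPs. For the 363 higher genes the median difference of E-AT2s from C-AT2s was 0.04, and for the 338 lower genes 0.03. For Pparg the difference was 5.11 in IAAPs and -0.49 in AT2s (adjusted p of the difference = 0.0129). For Slco2b1 it was 5.24 and -1.71 (adjusted p = 0.0232), with all 4 AT2 arrays below background, and for Cfb 6.92 and 1.81 (adjusted p = 0.0339), with C-AT2s below background. Plek, Rassf4 and Fabp4 read 2.51, 2.61 and 3.22 in C-AT2s and were above background on 1 of the 3 E-AT2 arrays each, so no size of their change in AT2s is read. With the day as a term in the model no gene passed this test in limma, while 5359 genes had an unadjusted p under 0.05. With 1 day of E-IAAPs left out, 131 to 576 genes passed it, against 1060 with all days.

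**Figure D5:**
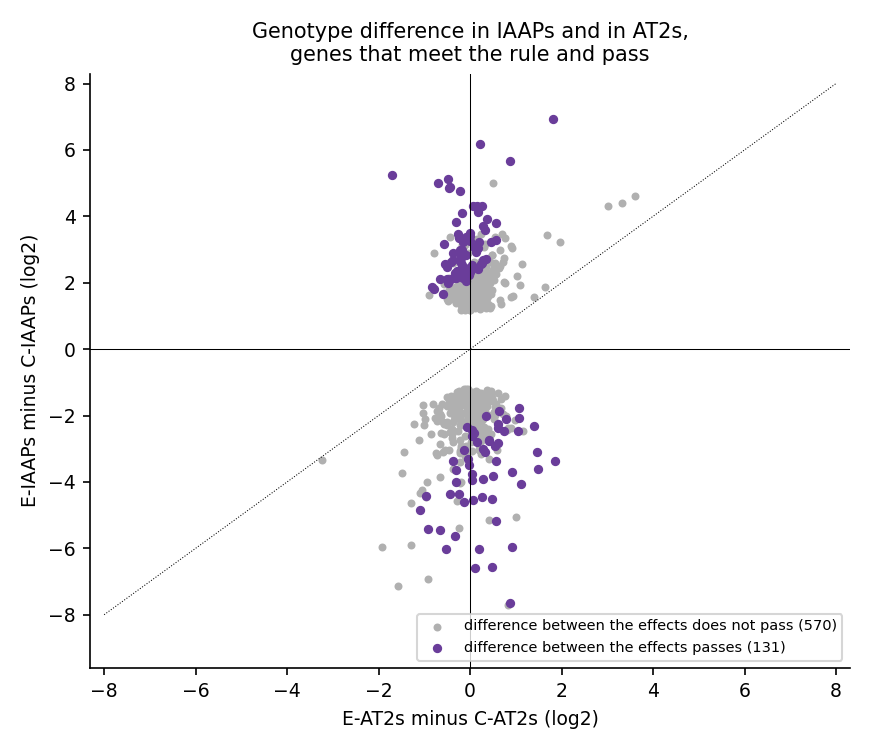
Difference between genotypes (log2) in AT2s (horizontal axis) and in IAAPs (vertical axis) for the 701 genes that met the rule and passed. Purple points are the 131 genes in which the 2 effects differed, grey points the rest and the dotted line marks equal effects; nearly all points lie close to 0 on the AT2 axis, apart from a few such as Plek, Rassf4 and Fabp4, which were below background in C-AT2s.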

How the data were processed

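Epcam-positive cells were sorted by the Tomato signal, and their RNA was amplified with the Ovation PicoSL WTA kit, labelled with Cy5 and hybridized to 1-colour Agilent arrays, with 1 array per group and day. The authors corrected the background with NormExp on negative control spots and quantile-normalized the arrays in limma (version not given in the sources used here), and the deposited values are log2 signals per spot, before replicate spots were averaged. The number of arrays limits the precision. Of 62976 spots, 43941 had a single gene symbol, and the brightest spot by mean over the 8 arrays was taken for each of 24357 genes. Differences were fitted with limma 3.58.1 in R 4.3.3 (lmFit, contrasts and eBayes over 4 groups) after the script was tested on simulated data, with Benjamini-Hochberg adjustment over all genes, and tables were made in Python 3.11.15.

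Named genes were Fgfr2, 9 genes that the study follows, the 12 largest differences in each direction among genes that met the rule and passed, in each list the up to 6 brightest members that met the rule and every member that also passed where 5 or fewer did, and the 5 largest differences between the IAAP and AT2 effects in each direction. Not all of these are printed. Genes named outside this are said to be so. The members and lists were chosen with earlier results of these data known. Promoters came from RefSeq (GRCm38.p6). Where a signal lay below the background level of its array, the fold was computed against that level. Alternatives were other centrings, quantile normalization once more, all spots of a gene averaged, brighter genes only, a floor, the day as a term, limma-trend, the 4 IAAP arrays alone, other signal thresholds and leaving out each day.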

Additional observations from a re-analysis of the deposited data

Results flagged for a closer look

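For 18 of the named genes the difference between genotypes in IAAPs was not the same as that in AT2s in limma's test of the difference itself. The values below are the IAAP difference minus the AT2 difference on the log2 scale, and each control group has 1 array. None of the 18 passed with the day as a term in the model, where no gene did, and with 1 day of E-IAAPs left out 131 to 576 of all genes passed, against 1060. All of these genes but C3 lay below background on 1 or more of the arrays compared, so the sizes are not folds of expression. Among genes higher in E-IAAPs it was 6.952 for Slco2b1 (adjusted p = 0.0232), 5.944 for Slc25a40 (0.0102), 5.707 for Sulf2 (0.011), 5.607 for Pparg (0.0129) and 5.345 for Pbdc1 (0.0203). It was 5.314 for Ndufaf2 (adjusted p = 0.015), 5.109 for Cfb (0.0339), 4.99 for Man1b1 (0.0129), 4.774 for Trp53bp1 (0.0187) and 2.481 for C3 (0.0363).

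Among genes lower in E-IAAPs it was -8.519 for Scn1a (adjusted p = 0.0102), -7.039 for Ly6g6e (0.0131), -6.887 for Arhgap32 (0.0184) and -6.703 for 5430435K18Rik (0.0312). It was -6.229 for E230016K23Rik (adjusted p = 0.0131), -5.512 for Gm13272 (0.0459), -5.29 for Taar9 (0.0161) and -2.994 for Cd59a (0.0416).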

How the results depend on the processing

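Leaving out each E-IAAP day in turn gave 2532 to 3399 genes that passed against 4159 with all days, 386 to 543 genes of the rule (428 without day 7) against 701, and 131 to 576 genes (335 without day 7) in the comparison with AT2s against 1060. Without day 4, 363 of the 701 remained, without day 7, 404, and without day 14, 472. With the mean of all spots 337 genes of the rule and 540 of the comparison with AT2s passed, and 268 of the 701 remained. Of the 701, 466 had more than 1 spot, and in 206 of these (44.2%) all spots had the same sign. Limited to genes above the median of the mean level, these counts were 1298 and 1649, and with limma-trend 1543 and 1809. With a floor at the highest background level 1537 of all genes passed. With the day as a term 1395 of all genes, 159 of the rule and 0 of the comparison with AT2s passed (5359 at an unadjusted p under 0.05), and with the 4 IAAP arrays alone 2615 and 349. With a signal threshold of 9, 1286 genes of the rule passed, and with 11, 334. Among genes of the rule that passed, the share of higher genes was 51.8%, and 22.5% where genes that every cell uses served to centre the arrays. Of all 3580 genes of the rule, 1465 were higher and 2115 lower.

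Differences that changed sign, none of them past the threshold except that of Rpl15, were Sftpc (-0.22), Ccnd2 (-0.18), Ager (-0.24) and Tyrobp (-0.0927) with that centring, Sftpb (-0.0232), Ccnd2 (-0.44), Cd33 (0.19) and Rpl15 (-0.35) with the mean of spots, and Ccnd2 (-0.0059) without day 14. Of 71 named calls, 44 held in every fit that left out a day, and 36 of them also under the 3 settings of scale and spots. The other calls were lost at adjusted p of 0.0502 to 0.949, and the causes were not tested. No paired analysis was possible because the labels give a single replicate number, and arrays of the same day were matched only in the fit with the day as a term. Genes dimmer than the background of the C-IAAP array were limited by signal over background, and their folds are lower bounds.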

Other observations

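Single genes of other pathways also passed under the rule. Birc3, an inhibitor of apoptosis downstream of NF-kB, read 12.23 in C-IAAPs and 10.19, 9.51 and 9.51 in E-IAAPs (difference -2.49 ± 0.41 (SE), adjusted p = 0.0103), against 10.14 to 10.54 in AT2s, but did not pass with the mean of its spots. Srebf2, the factor that switches on cholesterol synthesis, read 12.32 and 10.85, 11.10 and 10.74 (difference -1.42 ± 0.33, adjusted p = 0.0315), below the 11.41 to 11.73 of AT2s, and did not pass with the mean of its spots or whichever day was left out. Of 27 genes of lipid and sterol synthesis, 2 passed higher and 1 lower, with a median of 0.01, or -0.36 where genes that every cell uses served to centre the arrays. Creld2, of the unfolded protein response (difference 1.47 ± 0.40, adjusted p = 0.0488), and Axin1, which holds back Wnt signaling (difference 1.81 ± 0.41, adjusted p = 0.0284), did not pass whichever day was left out. Creld2 also did not pass with that centring, and Axin1 not with the mean of its spots.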
